A study of Mus musculus with 4 samples.

Results

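The cells described here were gated from mouse lung tumours on transcripts of Xcr1 and Clec9a, the surface receptors by which cross-presenting dendritic cells are usually recognised. A unique molecular identifier, or UMI, marks 1 captured transcript molecule. The members were thus chosen by measured UMI counts of these genes, which are given below as a description. A barcode was kept with at least 200 genes and at most 20% of its UMIs from mitochondrial genes. It was then gated in with at least 2 UMIs of Xcr1 and Clec9a together, at most 4 UMIs of Ccl22, Fscn1 and Ccr7 together, fewer than 10 UMIs of C1qa, C1qb and C1qc together, and no UMI of Cd3e, Cd79a or Epcam. In all, 107 cells passed among 13531 kept cells of the libraries made before depletion of CD45-positive and CD31-positive cells, 48 of 7304 in the vehicle library and 59 of 6227 in the tamoxifen library. All 4 libraries of the series held 28085 kept cells, and after depletion 0 cells passed in the vehicle library and 1 in the tamoxifen library.

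Every group carried the same alleles, KrasFSF-G12D, p53frt, Rosa-FSF-CreERT2 and Hnf4aflox. Tumours were started with an adenovirus that makes the FlpO recombinase from the mSPC promoter, a surfactant gene promoter of alveolar type 2 cells, so the Flp-dependent alleles, CreERT2 among them, are activated in infected cells. Tamoxifen or vehicle was injected 10 weeks after infection and tumour cells were collected 2 weeks later, to compare tumours with and without the transcription factor gene Hnf4a. The labels call the control ethanol and the protocol calls it corn oil, so it is named vehicle here. Macroscopic tumours were dissociated, cells were frozen, and live single cells were sorted and profiled by 10x 3′ sequencing. Each group is 1 library, and the number of animals behind a library is not given in the sources used here. No difference between vehicle and tamoxifen therefore has a replicate check, and no p-value is given. Intervals are 95% intervals of counting error only: Clopper-Pearson for shares, exact Poisson for levels and exact conditional binomial for ratios.

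The libraries before depletion held 104147479 UMIs (vehicle) and 92644997 UMIs (tamoxifen), with medians of 9519 and 9986 UMIs per kept cell. The targeted gene, counted in cells with at least 2 Epcam UMIs, went against the labels: Hnf4a stood at 29.4 UMIs per 1000000 counted (CPM; 27.8 to 31.1) in the vehicle library and at 53.4 CPM (51.3 to 55.7) in the library labelled tamoxifen. After depletion Hnf4a stood at 54.2 CPM in the vehicle and 83.1 CPM in the tamoxifen library, the same direction. The cells counted before depletion were mixed: 972 of 1941 (vehicle) and 984 of 1912 (tamoxifen) had a UMI of the epithelial keratin gene Krt8. The part of cell makeup in these levels was not tested. The deleted exons are not named in the sources used here, and a 3′ tag outside them would not report the deletion. Directions below therefore hold for the libraries as they are labelled. The gated cells had no Hnf4a UMI in either library. The 2 libraries shared 15 kept barcode sequences, none of them from a gated cell.

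Conventional type 1 dendritic cells take up dead cells through Clec9a, a receptor for exposed actin filaments, and move fragments of their proteins onto MHC class I for CD8 T cells, a route called cross-presentation. Xcr1 is the receptor for the chemokine Xcl1, which activated T cells and natural killer cells release. The lineage depends on the transcription factors Irf8, Batf3 and Id2 and on the growth factor receptor Flt3, and in lung it carries the integrin Itgae (CD103) and often the lectin Cd207 (langerin).

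In the mouse genome (GRCm38) Xcr1 lies at chr9:123852315-123862029 on the minus strand and overlaps no other annotated gene. Clec9a lies at chr6:129408862-129424763 on the plus strand within a cluster of lectin genes. It overlaps Clec1b (chr6:129397297-129409335, plus strand), whose 3′ end reaches into its first bases, and the intronic transcript Gm43914. Clec1a, on the minus strand at chr6:129424772-129452000, has its 3′ end just beyond that of Clec9a. The 250 bases before the start of both rule genes, and of Ifi205, a marker that the rule did not use and that was high in the Xcr1-positive cells, are shown because these genes were counted together. They are RefSeq sequences on GRCm38.p6, given on the gene's strand, with capitals for a match to a pair of GAAA separated by NN, a spaced repeat of the core bound by interferon regulatory factors such as Irf8.
Xcr1, chr9:123862030-123862279, minus strand: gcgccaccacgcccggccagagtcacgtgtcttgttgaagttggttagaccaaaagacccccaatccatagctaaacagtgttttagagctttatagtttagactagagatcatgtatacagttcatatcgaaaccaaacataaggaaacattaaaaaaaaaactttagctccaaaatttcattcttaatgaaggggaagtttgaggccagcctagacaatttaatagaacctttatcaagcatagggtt
Clec9a, chr6:129408612-129408861, plus strand: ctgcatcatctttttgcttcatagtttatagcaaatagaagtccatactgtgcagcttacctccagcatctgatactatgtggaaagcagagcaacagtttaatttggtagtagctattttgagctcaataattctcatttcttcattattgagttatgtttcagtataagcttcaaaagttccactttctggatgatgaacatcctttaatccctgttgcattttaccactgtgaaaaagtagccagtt
Ifi205, chr1:174031756-174032005, minus strand: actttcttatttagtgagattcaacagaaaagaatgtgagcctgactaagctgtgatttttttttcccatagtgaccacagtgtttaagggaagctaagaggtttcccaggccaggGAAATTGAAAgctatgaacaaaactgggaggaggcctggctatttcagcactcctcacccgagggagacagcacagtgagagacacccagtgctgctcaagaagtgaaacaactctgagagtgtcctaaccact

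Ifi205 held 1 match, 125 to 134 bases before its start. The Xcr1 and Clec9a windows held neither the spaced GAAA pair nor TGANTCA, the site of AP-1 factors such as Batf3, on either strand. Of 32851 mouse promoters of the same length, 978 (2.98%) held the spaced GAAA pair and 2217 (6.75%) held TGANTCA. A match describes letters in a window and is no evidence of binding.

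The label given to these cells, cross-presenting Xcr1 dendritic cells, held for a minority of them. Only 8 of the 48 vehicle cells (16.7%, 7.48 to 30.2%) and 23 of the 59 tamoxifen cells (39.0%, 26.6 to 52.6%) had any Xcr1 UMI, and the other 40 and 36 entered on Clec9a UMIs alone. To see what else each cell made, its UMIs were summed over 14 lists of cell type markers from which the rule's own genes were removed, and each cell was assigned to the list with the most UMIs. The lists differ in length, from 5 to 20 genes, so this assignment is a guide and not a cell type call.

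Among Xcr1-positive cells the type 1 dendritic cell list led in 7 of 8 (vehicle) and 21 of 23 (tamoxifen). In the others the type 2 dendritic cell list led, once in each library, and the plasmacytoid list in 1 tamoxifen cell. The Clec9a-only cells were mostly led by other lists: alveolar macrophage markers in 21 of 40 and 22 of 36, plasmacytoid markers in 10 and 6, endothelial markers in 1 and 6, and monocyte markers in 4 and 1. Of the Clec9a-only cells, 1 in each library was led by the type 1 list. The gated cells are therefore called by their rule below, and split into Xcr1-positive and Clec9a-only cells.

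**Figure D1:**
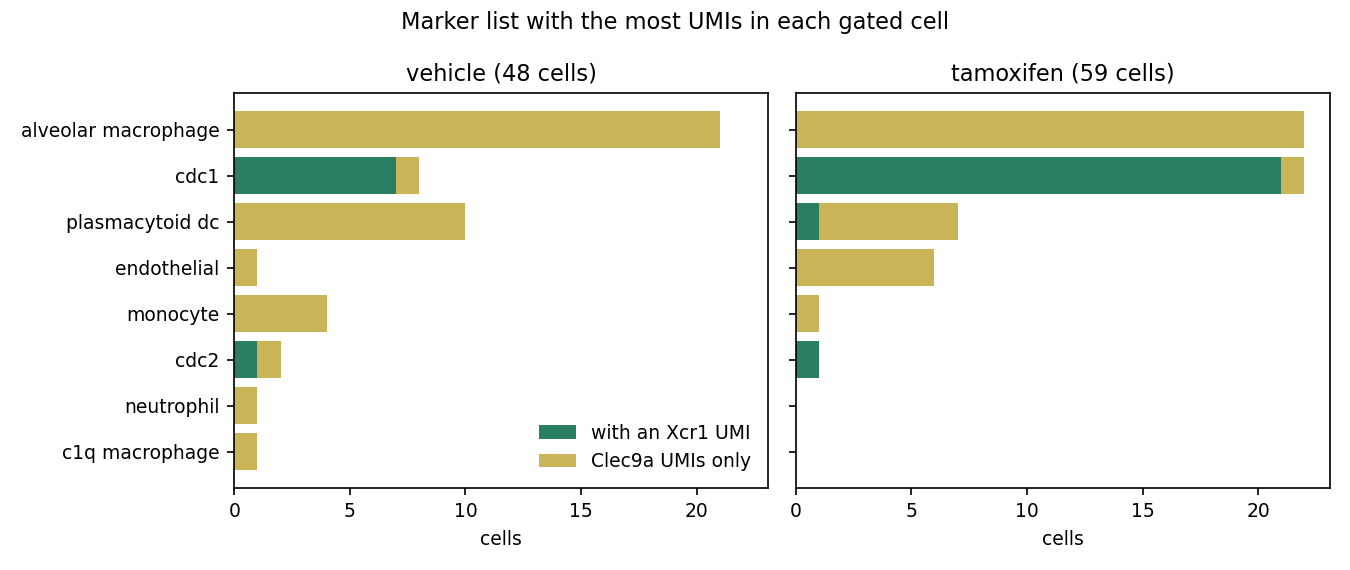
Number of gated cells (x axis) by the marker list with the most UMIs in the cell (y axis), in the vehicle library (left, 48 cells) and the tamoxifen library (right, 59 cells). Green bars are cells with an Xcr1 UMI and ochre bars are cells with Clec9a UMIs only: nearly all green cells fall on the cDC1 list (7 of 8 and 21 of 23), and 21 and 22 ochre cells fall on the alveolar macrophage list.

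The summed level of the type 1 list (20 genes without the rule genes) separated the 2 kinds of cell almost fully. In Xcr1-positive cells it ran from 903 CPM through a median of 12024 to 14545 CPM in the vehicle library and from 1539 through 8928 to 17659 CPM in the tamoxifen library. In Clec9a-only cells it ran from 206 through 1784 to 5231 CPM and from 115 through 1576 to 4842 CPM. Pooled over Clec9a-only cells it was 2135.5 and 1911 CPM, against a pooled 1380 and 1341 CPM in all other kept cells. The ranges overlapped only through the low Xcr1-positive cells.

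Alveolar macrophage transcripts showed the reverse. Their list of 12 genes summed to 20.3 and 49.6 CPM in Xcr1-positive cells, with 10 and 7 genes at 0, against 5728 and 5928 CPM in Clec9a-only cells. Chil3, a chitinase-like protein of alveolar macrophages, stood at 6.78 (0.172 to 37.8) and 17.3 CPM (6.97 to 35.7) in Xcr1-positive cells and at 3516 (3349 to 3689) and 3243 CPM (3067 to 3426) in Clec9a-only cells. Siglech, the plasmacytoid dendritic cell lectin, stood at 6.78 and 44.6 CPM against 440 and 491 CPM. In Xcr1-positive cells the vehicle value rests on 1 UMI, and the tamoxifen value on 18 UMIs of 1 cell led by plasmacytoid markers. The 5 endothelial markers summed to 0 and 9.91 CPM in Xcr1-positive cells and to 336 and 1201 CPM in Clec9a-only cells.

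**Figure D2:**
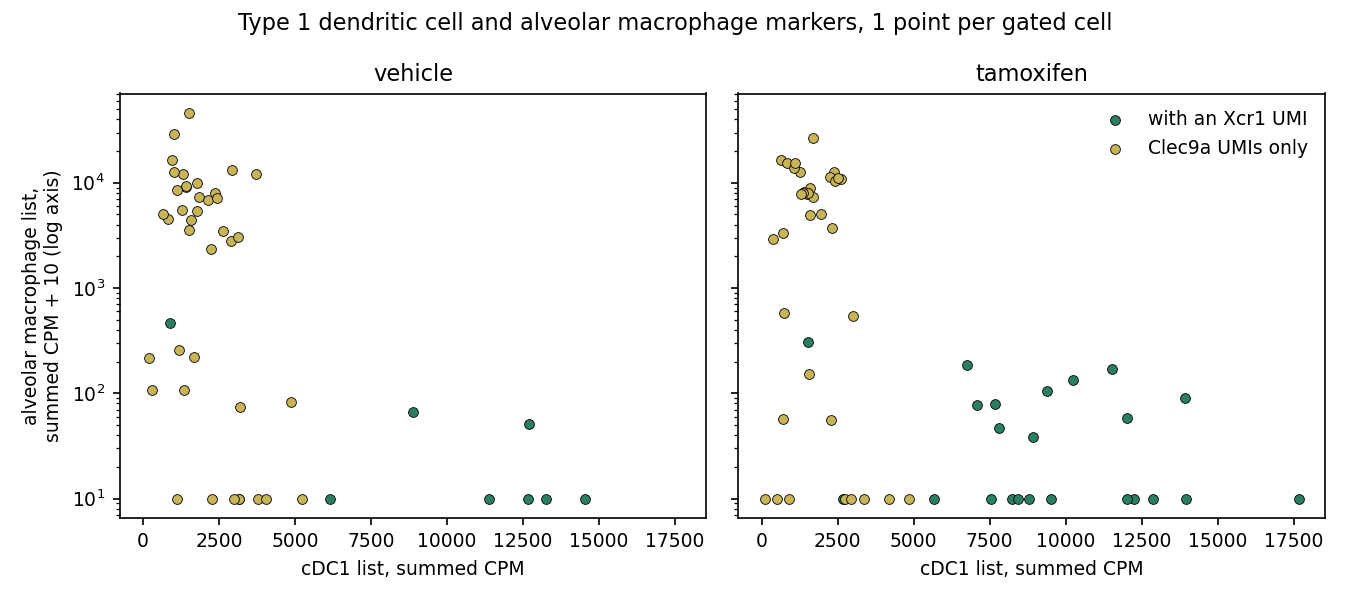
Each point is 1 gated cell, with its summed CPM over the 20 cDC1 markers outside the rule (x axis, linear) against its summed CPM over the alveolar macrophage list plus 10 (y axis, log scale), in the vehicle (left) and tamoxifen (right) libraries. Green points (an Xcr1 UMI) lie to the right with low macrophage signal, apart from a few near the ochre points, and many ochre points (Clec9a UMIs only) lie above 1000 CPM on the macrophage axis and to the left of most green points.

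Depth differed between the kinds of cell. Xcr1-positive cells had medians of 19652 and 16021 UMIs, and Clec9a-only cells had 11473 and 9225 UMIs. The Clec9a-only cells mostly stood at the edge of the rule: 34 of 40 and 31 of 36 had 2 or 3 Clec9a UMIs. Of the cells whose Xcr1 and Clec9a UMIs came to exactly 2, 1 of 23 (vehicle) and 2 of 25 (tamoxifen) had an Xcr1 UMI. At 4 or more UMIs it was 7 of 13 and 20 of 25. The sum includes Xcr1 itself, so cells with many Xcr1 UMIs fall among those with 4 or more by construction. Those cells were also deeper, with medians of 17576 and 14951 UMIs against 9489 and 9522 at exactly 2. Nothing further is read from this contrast. Just outside the rule, cells with a sum of 1 numbered 114 and 122, and the alveolar macrophage list led in 73 and 89 of them. No gated cell had more than 4 C1q UMIs. All 48 vehicle cells and 53 of the 59 tamoxifen cells had no UMI of Ccl22, Fscn1 or Ccr7, and 3 tamoxifen cells had 3 or 4, just inside the limit.

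Clec9a UMIs were found in several kinds of cell and Xcr1 UMIs in few. The gate for alveolar macrophages (at least 3 UMIs of Marco, Krt79 and Siglecf) held Clec9a at 30.5 and 26.8 CPM, the endothelial gate at 16.9 and 25.0 CPM, and cells gated on Siglech at 73.0 and 37.6 CPM. The endothelial gate (at least 3 UMIs of Cdh5 and Pecam1) was mixed, with Flt3 at 54.9 and 61.0 CPM and Clec12a at 62.9 and 60.6 CPM. Cells led by plasmacytoid markers held up to 8 Pecam1 UMIs and could enter it, while the Siglech gate left out cells passing another gate. The part of such cells in its Clec9a level was not tested. T-gated cells, which should lack it, stood at 2.03 and 0.874 CPM, and B-gated cells at 1.02 and 0.976 CPM. Among all kept cells led by the alveolar macrophage list, 300 of 1664 and 351 of 2081 had a Clec9a UMI, against 4 of 997 and 3 of 609 led by the T cell list. Xcr1 was at 0 in the alveolar macrophage, endothelial, B, natural killer and fibroblast gates of both libraries. The epithelial gate, which Xcr1-positive cells with at least 2 Epcam UMIs can enter, held Xcr1 at 5.59 and 6.89 CPM in 26 and 31 cells. It held Clec9a at 9.51 and 10.6 CPM in 163 and 203 cells.

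The genes on either side of Clec9a were counted in the same cells. Clec1b, a platelet and myeloid lectin, stood at 165 and 145 CPM in the gated cells led by alveolar macrophage markers (17 of 21 and 15 of 22 cells with a UMI), at 76.6 and 72.4 CPM in the alveolar macrophage gate, and at 6.78 and 12.4 CPM in Xcr1-positive cells. Clec1a, an endothelial lectin, stood at 673 and 317 CPM in the gated cells led by endothelial markers and at 13.6 and 14.9 CPM in Xcr1-positive cells. The vehicle value rests on 3 UMIs in 1 cell, and the tamoxifen value on 20 UMIs in 5 of 6 cells. The cells led by plasmacytoid markers held Clec1b at 7.98 and 12.1 CPM and Clec12a, a further neighbour that does not overlap Clec9a, at 168 and 485 CPM. Clec12a went the other way in the cells led by alveolar macrophage markers, at 17.3 and 18.7 CPM against 149 and 171 CPM in Xcr1-positive cells, and Clec12b had no UMI in either. Whether reads of a neighbouring gene were counted as Clec9a was not tested.

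**Figure D3:**
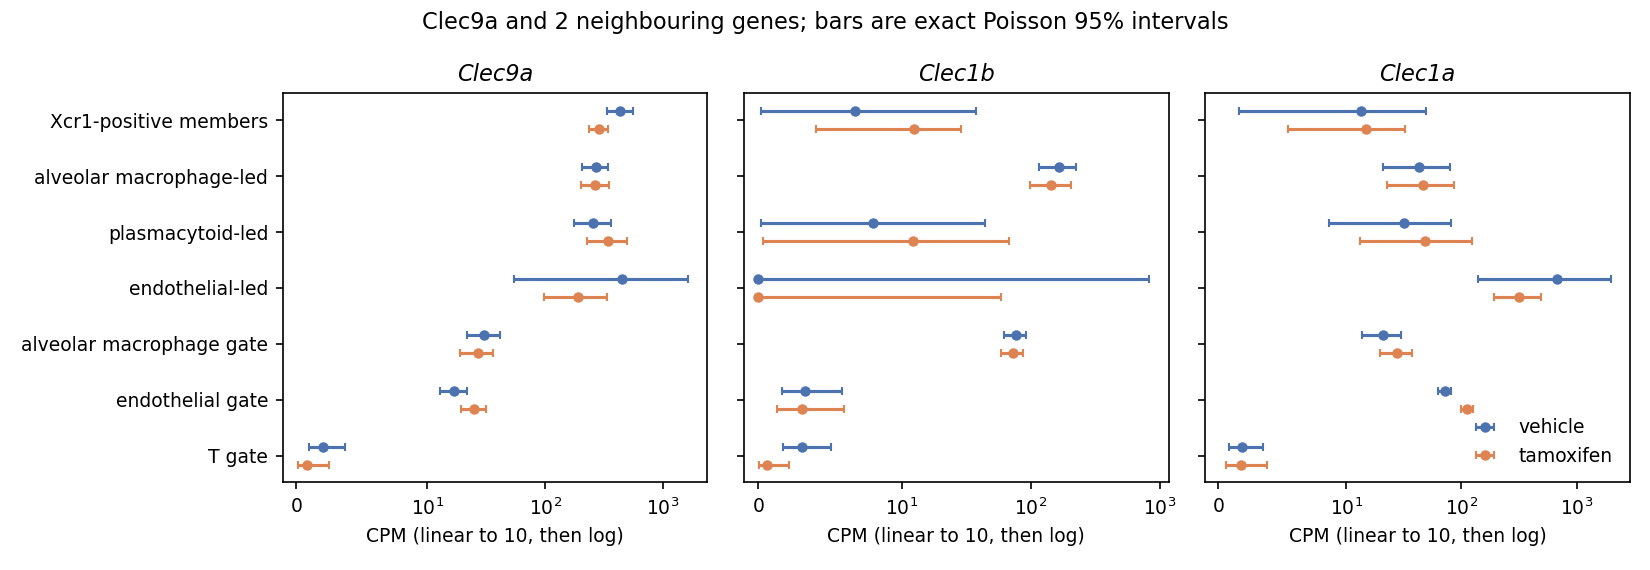
Levels in CPM (x axis, linear to 10 and logarithmic above) of Clec9a, Clec1b and Clec1a in gated cells and in other gates (y axis), with exact Poisson 95% intervals, for the vehicle (blue) and tamoxifen (orange) libraries. Clec9a lies between 190 and 449 CPM in every gated kind, a level largely set by the rule, as each Clec9a-only cell needed at least 2 Clec9a UMIs. It lies between 16.9 and 30.5 CPM in the alveolar macrophage and endothelial gates. Clec1b is high in the cells led by alveolar macrophage markers (165 and 145 CPM) and Clec1a in those led by endothelial markers (673 CPM from 3 UMIs of 1 cell, and 317 CPM).

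The clause on Epcam removed more Xcr1-positive cells than the rule kept. Epcam is an epithelial adhesion molecule that some dendritic cells, such as Langerhans cells, also make. Of the cells with at least 2 UMIs of Xcr1 and Clec9a, 189 and 195 in all, 57 and 65 had Xcr1. The Epcam clause alone left out 28 and 31 Xcr1-positive cells, and the type 1 list led in every one of them. Their Epcam level was 146 and 198 CPM, against 678 and 583 CPM in epithelial-gated cells. The keratin gene Krt8 stood at 7.2 and 3.99 CPM in them, against 752 and 783 CPM in epithelial-gated cells. Both sets were chosen on Epcam UMIs, which partly sets their Epcam levels. The epithelial gate was also mixed: Krt8 was found in 972 of 1941 and 984 of 1912 of its cells, and Xcr1 in 26 and 31.

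Xcr1-positive cells with and without an Epcam UMI were alike in most genes. Of 3860 genes at 50 CPM or more, 29 were higher and 10 lower with Epcam by 2-fold or more in each library. Of the 20 type 1 markers only Cd207 was among them: it stood at 523 and 792 CPM with Epcam and at 230 and 230 CPM without. With Epcam allowed, Xcr1-positive cells numbered 36 (0.493% of kept cells, 0.345 to 0.682%) and 54 (0.867%, 0.652 to 1.13%). This wider set was chosen after values were seen and is given beside the gated cells where it bears on them. Its depth was higher, with medians of 24526 and 21081 UMIs. After thinning each cell to 2000 UMIs, Epcam was found in 16.7% and 14.8% of the wider set (77.8% and 57.4% unthinned) and in 2.71% and 2.60% of B-gated cells (9.09% and 8.70% unthinned), a gate that leaves out cells with 2 or more Epcam UMIs and had medians of 4824 and 4563 UMIs. In alveolar macrophage-gated cells, with the same limit on Epcam, it was 12.1% and 10.4%. The part that free or neighbouring epithelial RNA plays in these Epcam UMIs was not tested.

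Another clause removed a few Xcr1-positive cells of a different kind. The Cd3e clause alone left out 10 and 4 cells, of which 9 and 3 had Xcr1 UMIs, and the T cell list led in 8 and 3 of those. T-gated cells as a whole held Xcr1 at 7.12 and 4.95 CPM. Whether these barcodes held more than 1 cell was not tested. The clauses on maturation genes and on C1q genes alone left out 2 and 0 Xcr1-positive cells between them in the vehicle and tamoxifen libraries.

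The share of gated cells was 0.657% of kept cells (0.485 to 0.870%) in the vehicle library and 0.948% (0.722 to 1.22%) in the tamoxifen library. Xcr1-positive gated cells were 0.110% (0.0473 to 0.216%) and 0.369% (0.234 to 0.554%), and Clec9a-only cells were 0.548% (0.392 to 0.745%) and 0.578% (0.405 to 0.800%). The Xcr1-positive share was thus higher in the tamoxifen library beyond counting error, while the Clec9a-only shares lay within each other's intervals. In the wider set with Epcam allowed the shares were 0.493% (0.345 to 0.682%) and 0.867% (0.652 to 1.13%), again higher in the tamoxifen library. These intervals overlapped only at their ends, and such overlap does not place the difference within counting error. Dissociation, freezing, sorting and the makeup of the rest of each library enter these shares, and the spread between animals cannot be told apart from the treatment.

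The markers named for these cells were read after thinning each cell to 2000 UMIs. Itgae was found in 14.6% of gated cells (6.07 to 27.8%; 18.8% unthinned) in the vehicle library and in 28.8% (17.8 to 42.1%; 33.9% unthinned) in the tamoxifen library. Cd207 was found in 6.25% (1.31 to 17.2%; 10.4% unthinned) and 13.6% (6.04 to 25.0%; 25.4% unthinned). Flt3 was found in 20.8% (10.5 to 35.0%; 33.3% unthinned) and 33.9% (22.1 to 47.4%; 45.8% unthinned). B-gated cells, as a type that should lack Itgae, had it in 0.678% and 1.95% (medians of 4824 and 4563 UMIs). Clec9a-only cells had no Itgae and no Cd207 UMI after thinning, in 0 of 40 and 0 of 36 cells, which allows up to 7.5% and 8.33% of cells with a UMI at that depth (3 counts of the total); unthinned, 1 vehicle cell had Itgae. In the wider Xcr1-positive set Itgae was found in 80.6% and 72.2% (100% and 94.4% unthinned) and Cd207 in 33.3% and 38.9% (69.4% and 77.8% unthinned). Flt3 was also present without Xcr1, being found in 7.5% and 11.1% of Clec9a-only cells (22.5% and 13.9% unthinned) and in 37.5% and 21.7% of Xcr1-positive gated cells (87.5% and 95.7% unthinned). The higher Itgae and Cd207 shares among all gated cells of the tamoxifen library stood beside a larger share of Xcr1-positive cells there.

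The Xcr1-positive cells carried a broad type 1 programme outside the rule. Wdfy4, which is needed for cross-presentation of cell-associated antigen, stood at 2351 CPM in the vehicle cells and 1214 CPM in the tamoxifen cells, and 1 vehicle cell held 24.5% of the vehicle UMIs. Naaa, an acid amidase of lysosomes, stood at 1687 and 1712 CPM. Plet1 stood at 1457 and 1197 CPM. Itgae stood at 678 and 533 CPM, Ppt1, a lysosomal thioesterase, at 569 and 597 CPM, and Ifi205 at 352 and 426 CPM. Apart from Wdfy4 these levels lay close together in the libraries.

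These genes were set against 3 other gates of the same libraries: a mature gate (at least 5 UMIs of Ccl22, Fscn1 and Ccr7; 99 and 68 cells), a Cd209a gate for type 2 dendritic cells (34 and 14 cells) and a C1q-high macrophage gate (434 and 311 cells). The gates were themselves mixed: the mature gate held the stromal gene Igfbp7 at 2383 and 1829 CPM, and the Cd209a gate held Siglech at 567 and 166 CPM. Genes at 50 CPM or more in either set were counted where the 2 libraries each gave a ratio of 4-fold or more in the same direction. Against the mature gate 168 of 4758 genes (3.53%) were higher and 580 (12.2%) lower in Xcr1-positive cells. Against the Cd209a gate 117 of 4430 (2.64%) were higher and 191 (4.31%) lower, and against the C1q-high gate 153 of 4257 (3.59%) were higher and 375 (8.81%) lower.

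For the gated cells as a whole, Clec9a-only cells included, the same counts were 176 of 4827 (3.65%) and 238 (4.93%) against the mature gate, 152 of 4550 (3.34%) and 43 (0.945%) against the Cd209a gate, and 156 of 4329 (3.6%) and 103 (2.38%) against the C1q-high gate. Of the 20 type 1 markers 14, 14 and 15 were higher in Xcr1-positive cells against the 3 gates in turn and 0 were lower. All 12 mature dendritic cell markers at 50 CPM or more were lower against the mature gate, and 7 of 11 type 2 markers were lower against the Cd209a gate. These counts describe gates cut on a few of the same genes, and nothing further is read from them.

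In all 40 genes were higher against all 3 gates, 34 of them with a symbol of their own and outside the rule. The genes tested numbered 4758, 4430 and 4257 against the mature, Cd209a and C1q-high gates. Some of the 40 were low in the 8 vehicle cells: Snx22 and Gpr33 stood at 54.2 CPM there, where 3 counts are 20.3 CPM. Itgae was among the 40, at 11.9 and 5.90 CPM in the mature gate, 30.6 and 11.1 CPM in the Cd209a gate and 0.824 and 0.793 CPM in the C1q-high gate. Cldn1, a tight junction claudin, stood at 271 and 191 CPM in Xcr1-positive cells, at 11.9 and 18.7 CPM in the mature gate and under 3 CPM in the other two. Tlr3, the endosomal sensor of double-stranded RNA, stood at 169 and 136 CPM, against 15.5 and 5.90 CPM in the mature gate and 12.0 and 11.5 CPM in the C1q-high gate. Sept3 stood at 278 and 228 CPM and at no more than 9.41 CPM in any gate. Dnase1l3, a secreted DNase that digests DNA in cell debris, stood at 203 and 131 CPM against 31.3 and 24.8 CPM in the C1q-high gate. Hepacam2, Lrba, Gcsam, Ptpn22 and Cd24a were also among the 40.

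**Figure D4:**
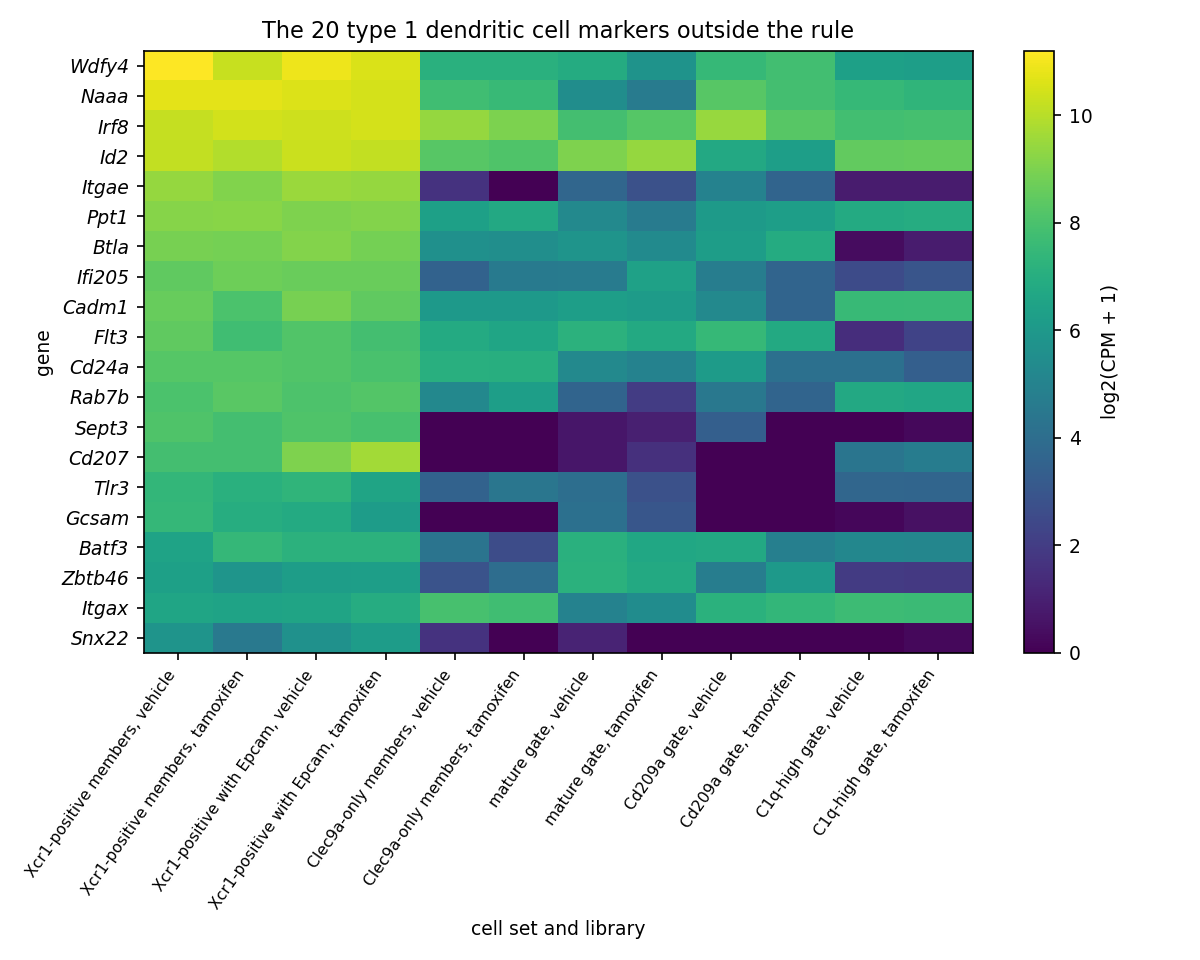
Colour gives log2(CPM + 1) of the 20 type 1 dendritic cell markers outside the rule (rows, ordered by level) in sets of cells of the vehicle and tamoxifen libraries (columns). The Xcr1-positive gated cells and those with an Epcam UMI share the pattern, with Cd207 brighter in the latter (523 and 792 against 230 and 230 CPM), while Clec9a-only cells are dark for Itgae, Cd207, Sept3 and Gcsam.

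The factors that build the lineage were measured next. Irf8 stood at 1179 CPM (1010 to 1368) and 1392 CPM (1280 to 1512) in Xcr1-positive cells, at 229 and 303 CPM in the mature gate and at 703 and 316 CPM in the Cd209a gate. Id2 stood at 1145 and 956 CPM. Batf3 stood at 88.1 and 173 CPM, and at 136 and 100 CPM in the mature gate. Zeb2, a repressor of this lineage, stood at 6.78 and 29.7 CPM against 812 and 771 CPM in the C1q-high gate, and Tcf4, the plasmacytoid factor, at 33.9 and 104 CPM against 1059 and 1156 CPM in Clec9a-only cells. Irf4 and Klf4, factors of type 2 cells, stood at 27.1 and 4.96 CPM and at 74.5 and 112 CPM.

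Receptors for growth factors and for dead cells followed. Flt3 stood at 352 and 216 CPM in Xcr1-positive cells and at 1.79 and 3.77 CPM in the C1q-high gate, and Kit, the stem cell factor receptor, at 244 and 191 CPM. Csf1r, the macrophage growth factor receptor, was at 0 and 9.91 CPM against 644 and 669 CPM in the C1q-high gate. Of 20 receptors for antigen and dead cells at 50 CPM or more, 5 were higher and 12 lower than in the C1q-high gate. Over all genes tested against that gate, 3.59% were higher and 8.81% lower. Havcr2 (TIM-3) stood at 413.3 and 393.9 CPM against 181 and 182 CPM, whereas the dead cell receptor Mertk was at 0 and 12.4 CPM against 291 and 309 CPM. Clec9a-only cells held Mertk at 603 and 573 CPM.

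Antigen presentation genes were counted at 4-fold against the same gates. Over all genes tested, 3.53%, 2.64% and 3.59% were higher in Xcr1-positive cells than in the mature, Cd209a and C1q-high gates. The shares lower were 12.2%, 4.31% and 8.81% in the same order. H2-Ab1, a class II chain, stood at 9099 and 8498 CPM in Xcr1-positive cells, at 1626 and 2229 CPM in the mature gate and at 814 and 657 CPM in Clec9a-only cells. Of 13 class II genes, 2, 0 and 2 were higher than in the mature, Cd209a and C1q-high gates, and only Ctss was lower in any. Ctss, the protease that trims the invariant chain, stood at 495 and 557 CPM against 2978 and 3368 CPM in the C1q-high gate. Of the class I presentation genes, 3 of 28 were higher and 1 lower than in the mature gate, 2 and 1 of 26 against the Cd209a gate, and 2 and 2 of 25 against the C1q-high gate. The immunoproteasome subunit Psmb9 stood at 589 and 837 CPM against 119 and 120 CPM, and Rab43, a vesicle regulator of cross-presentation, at 637 and 649 CPM against 210 and 214 CPM. Cybb, the core of the NADPH oxidase, was at 0 and 47.1 CPM against 787 and 794 CPM. Ctsd, a lysosomal protease, stood at 13.6 and 37.2 CPM against 1179 and 1066 CPM.

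Maturation and chemokine genes set these cells apart from the mature gate, as the clause on Ccl22, Fscn1 and Ccr7 partly fixed. Of 25 genes of the maturation programme 16 were lower and 0 higher, beside 12.2% lower and 3.53% higher over all genes tested. Il12b, a subunit of interleukin 12, had no UMI in Xcr1-positive cells and stood at 362 and 336 CPM in the mature gate, and Ccl5 was at 0 and 2.48 CPM against 2853 and 5434 CPM. Cd274 (PD-L1) stood at 122 and 91.7 CPM against 439 and 460 CPM. The costimulatory genes Cd86 (637 and 567 CPM) and Cd83 (508 and 533 CPM) were close to the mature gate's 629 and 656 CPM and 459 and 549 CPM.

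Ligands for their receptors were counted in other cells. Xcl1, the ligand of Xcr1, had no UMI in the gated cells and stood at 121 and 77.2 CPM in T-gated cells and at 149 and 327 CPM in natural killer-gated cells. Flt3l stood at 31.5 and 39.3 CPM in T-gated cells and at 27.2 and 17.8 CPM in natural killer-gated cells. Ifng stood at 129 and 140 CPM in T-gated cells and at 172 and 369 CPM in natural killer-gated cells. Natural killer-gated cells, 133 and 87 in number, thus had higher pooled Xcl1 and Ifng levels in the tamoxifen library. The Xcl1 intervals there were 122 to 180 CPM and 276 to 384 CPM, and those of Ifng were 142 to 205 CPM and 315 to 430 CPM. These intervals do not cover the spread between cells. Other transcripts of this gate also differed between the libraries. Csf2 had 1 UMI in the vehicle and 312 in the tamoxifen library, and the surfactant gene Sftpc stood at 2293 and 367 CPM. Ccl4 was alike, at 3213 and 3107 CPM.

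For tamoxifen against vehicle, a gene was counted when it reached 50 CPM in either library and its log2 ratio, with 1 CPM added to both levels, was at least 1 away from 0. Of 3998 genes in the gated cells 93 (2.33%) were higher and 157 (3.93%) lower in the tamoxifen library. With at most 1 UMI of Ccl22, Fscn1 and Ccr7 allowed, 65 were higher and 180 lower. In Xcr1-positive gated cells, with 8 cells on the vehicle side, 234 of 3510 (6.67%) were higher and 315 (8.97%) lower. In the wider Xcr1-positive set 36 of 3362 (1.07%) were higher and 38 (1.13%) lower. The 3 sets share cells, so their counts are not independent.

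Of the 10 genes named as higher in the gated cells of the tamoxifen library, Kdr and Cldn5 are on the endothelial list. Kdr, the main VEGF receptor, stood at 11.3 CPM in the vehicle and 106 CPM in the tamoxifen library (log2 ratio 3.12, 2.12 to 4.58), in 1 and 6 cells. Igfbp7 stood at 74.1 and 576 CPM (2.94, 2.52 to 3.43), with 63.8% of its UMIs in 1 cell and a log2 ratio of 1.52 without it. Cldn5, the endothelial claudin, stood at 38.7 and 163 CPM, and Flt1, Ctla2a, Gpihbp1, Sparcl1, Angpt2, Dach1 and Sema6d completed the 10. Without the cell that held the most of its UMIs, Flt1 (found in 21 and 18 cells) had a log2 ratio of 0.54 and Sparcl1 of 0.65, so neither was counted, and Angpt2 was left with 1 and 2 UMIs. At 3 or more UMIs of Xcr1 and Clec9a, Flt1 was lower in the tamoxifen library (−1.74), and 8 of the 10 genes had at most 3 UMIs in either library. Beside them stands the count of cells led by endothelial markers, 1 in the vehicle and 6 in the tamoxifen library. The endothelial list summed to 256 and 598 CPM over all gated cells, with no endothelial gene at 0 in Clec9a-only cells, and to 0 and 9.91 CPM in Xcr1-positive cells.

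Among genes lower in the tamoxifen library, Gdpd3, a lysophospholipase D, stood at 121 and 16.3 CPM (log2 ratio −2.82, −3.86 to −2.03), in 29 and 8 cells. It was also lower in all other kept cells, at 65.4 and 15.9 CPM (−1.98). Arg1, the arginase of alternatively activated macrophages, stood at 242 and 49.0 CPM (−2.28), and in all other kept cells at 75.5 and 38.9 CPM. Dntt, the terminal transferase of lymphoid precursors, stood at 99.9 and 12.6 CPM in 5 and 4 cells, Vegfa at 137 and 23.9 CPM and Cxcl14 at 274 and 62.8 CPM, with 59.4% of Cxcl14 UMIs in 1 cell. With Xcr1 required, Dntt was left with 0 and 2 UMIs and Arg1 with 0 and 1, too few for a ratio. Calm4, Pdpn, Slc38a6, Nav2 and Hal completed the 10.

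Of the 10 genes named as higher in the wider Xcr1-positive set, Ube2c, Cenpe and Tpx2 are on the list of G2 and M phase genes and Irf7 on that of interferon-stimulated genes. Ube2c, which drives exit from mitosis, stood at 21.4 and 121 CPM (log2 ratio 2.45, 1.79 to 3.30) in 3 and 11 cells, and Cks2, a cyclin-dependent kinase subunit, at 40.4 and 96.0 CPM in 12 and 26 cells. Cks2 was not counted without its top cell (log2 ratio 0.96). Racgap1, Hist1h2ap and Ifitm3 were also named, Ifitm3 with a log2 ratio of 0.54 without its top cell. Irf7, the interferon-induced regulator, stood at 8.32 and 104 CPM (3.49, 2.56 to 4.99), but 71.7% of its UMIs lay in 1 cell and the log2 ratio was 1.75 without it. That cell held 86 of 120 Irf7 UMIs, 132 of 238 UMIs of Plac8 and 18 of 49 UMIs of Isg15, together with 27 Xcr1 UMIs. Ccl17 stood at 29.7 and 234 CPM in 7 and 10 cells (2.21 without its top cell).

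Among genes lower in the wider set, some were found in most of its cells. Runx3, a transcription factor of CD8 T cells and dendritic cells, stood at 396 and 184 CPM (log2 ratio −1.10, −1.36 to −0.85) in 34 of 36 and 44 of 54 cells. Its log2 ratio was −0.72 in all kept cells that were not gated, which still hold the wider set's cells with an Epcam UMI. Wipf1, a partner of the actin regulator WASP, stood at 607 and 294 CPM (−1.04, −1.25 to −0.84) in 35 and 47 cells, and Itpkb, an inositol phosphate kinase, at 285 and 119 CPM (−1.25). In the kept cells that were not gated, Wipf1 had a log2 ratio of −0.41 and Itpkb of −0.52. Without the top cell of each gene, Runx3 (−0.97) and Wipf1 (−0.92) lay just short of 2-fold and Itpkb (−1.16) did not. Ifitm1 was found in 9 and 5 cells, and Zdhhc14 had 52.8% of its vehicle UMIs in 1 cell (−0.62 without it). Il12b was counted lower only through 1 vehicle cell that held every one of its vehicle UMIs.

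Most functional lists lay near 0. The median log2 ratio over all genes at 10 CPM or more was −0.08 in the gated cells and −0.04 in the wider Xcr1-positive set. MHC class II genes had a median of 0.56 in the gated cells, −0.01 in Xcr1-positive gated cells and −0.09 in the wider set, alongside the larger share of Xcr1-positive cells in the tamoxifen library. Genes of class I presentation had medians of 0.13, 0.22 and 0.06 in the same order. Interferon-stimulated genes had 0.35, 1.25 and 0.35. In the wider set 13 of 17 were above 0 and 1 of 8 was counted as higher, beside 1.07% of all genes tested. The type II interferon list had 2.10 in Xcr1-positive gated cells, over 7 genes with few UMIs, and −0.04 in the wider set.

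Genes of the G2 and M phases had the largest median of the wider set among the 18 lists, 0.97, with all 19 above 0. Of the 7 at 50 CPM or more, 3 were counted as higher, beside 1.07% of all genes tested. The summed level of the G2 and M phase list was 475 CPM in the vehicle and 1067 CPM in the tamoxifen cells, and 282 and 793 CPM without the cell that held the most. After thinning, at least 2 such UMIs were found in 11.1% (3.11 to 26.1%; 36.1% unthinned) and 18.5% of cells (9.26 to 31.4%; 48.1% unthinned), so the intervals overlapped widely. Among all gated cells the shares were 6.25% and 10.2%.

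**Figure D5:**
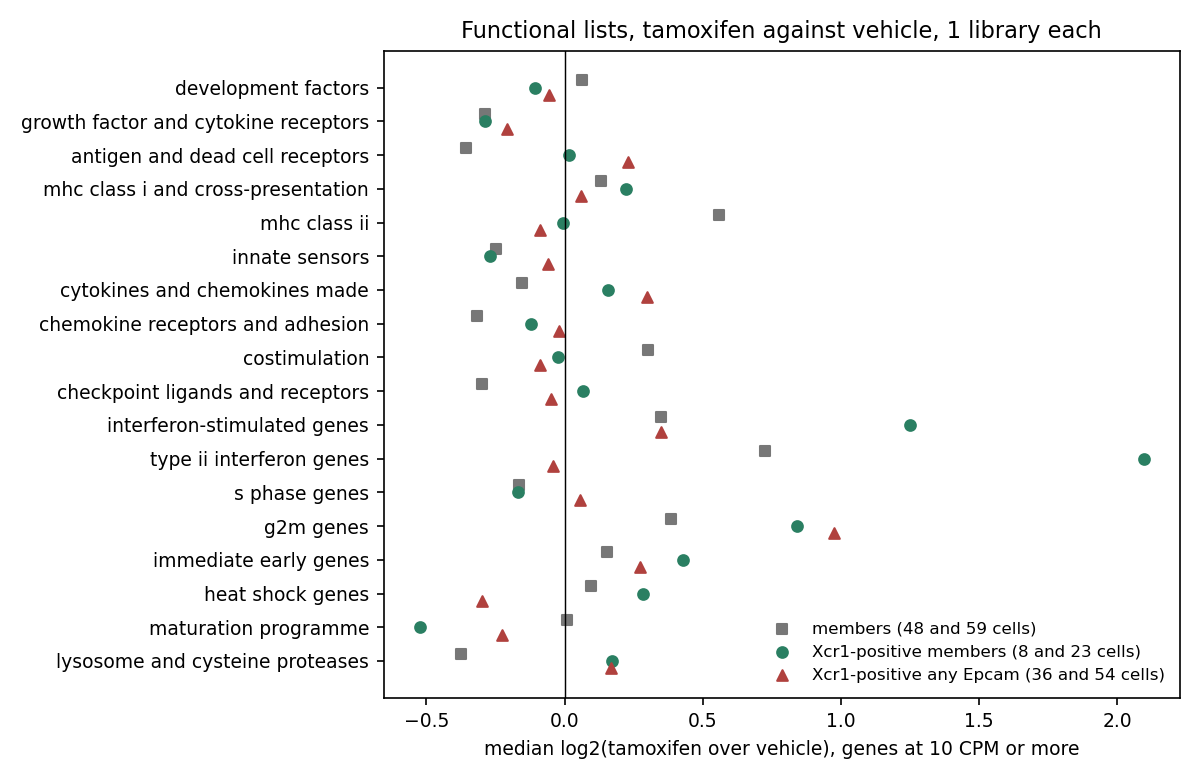
Median log2 ratio of tamoxifen over vehicle (x axis) over the genes of each functional list at 10 CPM or more (y axis), with 1 library on each side, for all gated cells (squares), Xcr1-positive gated cells (circles) and the wider Xcr1-positive set with any Epcam (triangles). Most medians lie within 0.5 of 0, those of interferon-stimulated genes and type II interferon genes reach 1.25 and 2.10 only in the set with 8 vehicle cells, and that of G2M genes is 0.97 in the wider set.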

How the data were processed

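The 4 libraries of 10x 3′ single-cell RNA were deposited as UMI counts per gene and barcode, made by the authors with Cell Ranger (7.0.1 per the file headers, 7.2.0 per the submitters' processing notes) on mm10, per the same notes. The members and the gene lists were chosen with earlier results of these data known. Counts were summed per set of cells and library and scaled to CPM. A gene's log2 ratio used a pseudocount of 1 CPM, a minimum of 50 CPM (10 CPM for list medians) and a 2-fold size rule. The 10 higher and 10 lower genes named were those whose 95% interval lay farthest from 0 among genes open to naming. Mitochondrial, ribosomal, immunoglobulin, haemoglobin, sex-linked and rule genes, transgenes and genes without a symbol of their own were left out. So were genes lower in the set than in kept cells that were not gated, in the library where they were higher. In the gated cells 73 of 93 higher and 118 of 157 lower genes were open to naming. Genes named against the gates were taken in Xcr1-positive cells instead of all gated cells, after values were seen. The Cd209a gate also needed no Xcr1 or Clec9a UMI, at most 4 UMIs of Ccl22, Fscn1 and Ccr7, and fewer than 10 C1q UMIs. The Siglech gate was added after values were seen. Scrublet (scanpy 1.11.5; expected rate 0.06) gave gated cells scores of at most 0.176, and cells at 0.25 or more, 225 and 116 in the libraries, were left in as none was gated. Other tools were numpy 2.4.6, pandas 2.3.3, scipy 1.17.1, edgeR 4.0.16 (TMM factors only) and matplotlib 3.10.9. The scripts were tested on simulated data. Alternatives covered the rule's cuts, scaling, pseudocount, minimum level, fold and thinning.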

Additional observations from a re-analysis of the deposited data

How the results depend on the processing

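No paired analysis was possible because each group holds 1 library. Requiring Xcr1, allowing Epcam and leaving out each gene's top cell were chosen after seeing the data. The share of gated cells (0.657% and 0.948%) became 2.22% and 2.91% with 1 UMI of Xcr1 or Clec9a, 0.342% and 0.546% with 3, and 0.110% and 0.369% with Xcr1 required. The 93 genes higher and 157 lower with tamoxifen became 24 and 31 at 1 UMI, 234 and 315 with Xcr1 required, 36 and 38 with Epcam allowed, 2334 and 2302 with no CPM minimum, 36 and 73 at 100 CPM, and 14 and 14 at 4-fold; at 3 UMIs 387 were lower. Lists with a median at least 1 from 0 numbered 0, and 2 with Xcr1 required. Counts higher and lower against the mature, Cd209a and C1q-high gates were 70 and 111, 77 and 15, and 90 and 45 at 8-fold, and 327 and 603, 713 and 89, and 435 and 193 with no minimum; the lower counts were 580, 191 and 375 with Xcr1 required and 575, 215 and 372 with Epcam allowed. Unthinned, Cd207 in tamoxifen cells was 25.4% (13.6% thinned), G2M genes 23.7% (10.2%), and S phase genes 79.2% and 62.7% (6.25% and 5.09%; 27.7% and 24.1% at 4000 UMIs). Of the 20 named genes, 12 had over 3 UMIs in a library at 3 UMIs of the rule genes, 5 with Xcr1 required, 7 with Epcam allowed and 19 at 1 maturation UMI; the others give no ratio there. Log2 ratios turned sign at 3 UMIs for Flt1 (−1.74), at 1 maturation UMI for Gpihbp1 (−1.14), and with Epcam allowed for Igfbp7 (−0.12), Sema6d (−0.45), Pdpn (0.87), Slc38a6 (1.52) and Nav2 (2.48). The cause was not tested, beyond the smaller or different sets of cells that these settings leave. TMM, median-of-ratios scaling and a pseudocount of 5 CPM turned none of the 20, and leaving out doublets removed no gated cell. The 3-count floor of 20.3 CPM for the 8 vehicle Xcr1-positive cells limits what can be read there.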
